A study of Rattus norvegicus with 24 samples.

Results

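Marker genes of the thalamus, 6 by name, were followed in the forebrain of rat pups on embryonic day 18. These were Gbx2, Tcf7l2, Lef1, Lhx9, Rora and Slc17a6. The members were taken by their symbols from a deposited table of 17420 genes, and 5 of the 6 symbols matched a row. Rora was not analysed here. The labelled tissue of every pup was neocortex and hippocampus, so the thalamus lies outside the labelled dissection and the members were read as a measure of how much diencephalic RNA each pup carried.

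RNA sequencing was performed on 24 pups of Sprague-Dawley dams, 6 in each of 4 groups. The dams of the Saline group received saline intraperitoneally on gestational day 17. The dams of the MAM group received methylazoxymethanol acetate, an alkylating agent that stops neural precursors from dividing, at 22 mg/kg on that day. The dams of the Poly I:C group received a synthetic double-stranded RNA that mimics viral infection, at 7.5 mg/kg on that day. Pups of these groups were collected 18 hours later. The Low Protein dams ate a diet with 6.1% protein from gestational day 11 to 18. The control diet, recorded for the Saline group over the same days, held 20.3% protein. The diet of the injected MAM and Poly I:C dams, and any injection of dams on the low protein diet, are not given in the sources used here. Each group held 3 pups from each of 2 litters, and a pup is named by its group, its litter and its number in that litter (Saline 2.1 is the first pup of the second saline litter). The treatment was given to the dam, so with 2 litters per group a p-value over pups may mistake a difference between litters for one between treatments.

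The thalamus is the part of the diencephalon that relays sensory input to the cortex, and its neurons are born before the stage studied. Gbx2 is a homeobox transcription factor of newly born thalamic neurons, and it is also made in parts of the ventral forebrain. Tcf7l2 and Lef1 encode DNA-binding partners of beta-catenin that carry out the transcriptional response to Wnt signals. Tcf7l2 is strong in postmitotic neurons of the thalamus, and Lef1 is made in several Wnt-responding tissues, among them brain endothelium and the hippocampal primordium. Lhx9 is a LIM-homeobox transcription factor of the caudal thalamus that is also found in the pallium. Slc17a6 encodes the vesicular glutamate transporter VGLUT2, which loads glutamate into vesicles in most thalamic neurons and, early in development, also in cortical neurons.

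RefSeq promoter windows of the GRCr8 assembly (250 bases before the start to 50 after it) matched Gbx2, Tcf7l2, Lef1, Rora and Slc17a6. Those of Gbx2 (chr9:97959834-97960133, minus strand) and Tcf7l2 (chr1:264791085-264791384, plus strand) are shown because these genes moved together from pup to pup. That of Slc17a6 (chr1:110348197-110348496, plus strand) is shown because its r with them did not pass the adjusted threshold. All read 5′ to 3′ on the gene's strand. Capitals mark a TCF/LEF motif.
Gbx2: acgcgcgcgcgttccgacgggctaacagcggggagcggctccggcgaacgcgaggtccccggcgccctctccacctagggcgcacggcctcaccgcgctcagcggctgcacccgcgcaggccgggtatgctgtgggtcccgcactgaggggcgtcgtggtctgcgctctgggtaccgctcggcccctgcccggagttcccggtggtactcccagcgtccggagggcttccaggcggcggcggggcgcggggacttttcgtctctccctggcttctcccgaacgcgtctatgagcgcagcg
Tcf7l2: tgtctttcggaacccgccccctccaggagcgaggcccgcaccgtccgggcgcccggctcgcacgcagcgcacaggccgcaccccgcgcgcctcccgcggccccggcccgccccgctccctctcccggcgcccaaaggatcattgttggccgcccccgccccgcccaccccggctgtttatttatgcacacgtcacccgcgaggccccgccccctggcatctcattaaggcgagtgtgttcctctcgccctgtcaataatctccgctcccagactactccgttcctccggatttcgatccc
Slc17a6: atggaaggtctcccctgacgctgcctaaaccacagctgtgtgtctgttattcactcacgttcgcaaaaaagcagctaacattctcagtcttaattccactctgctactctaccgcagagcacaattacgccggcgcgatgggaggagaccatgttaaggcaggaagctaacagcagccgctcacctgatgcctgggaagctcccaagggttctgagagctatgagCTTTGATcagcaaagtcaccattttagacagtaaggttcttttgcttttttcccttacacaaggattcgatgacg

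The windows of Gbx2 and Tcf7l2 were rich in G and C, at 73.7% and 70.3% of bases, and that of Slc17a6 held 49%. The TCF/LEF motif CTTTGAT, searched on both strands, had 1 match in the Slc17a6 window, starting 25 bases before the start site. It had no match in the windows of Gbx2, Tcf7l2 and Lef1. The homeodomain motif TAATTA, which reads the same on both strands, had no match in the windows of these 4 genes. Of all 33469 windows of 300 bases, 3.63% held the first motif and 5.36% the second. A match here is a match of letters and not a site of binding.

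The values are TPM as deposited, with an offset of 0.0001 added by the authors. They sum to 70350.1 in every pup, so TPM names the deposited scale throughout and not the standard unit of that name. A level of 1 on it is not 1 TPM in the standard unit, and a level below 1 is not by itself near the floor. The values behave as values per length of the whole gene, introns included. Levels of different genes are therefore set side by side only per genomic length. On this scale the median level over the 24 pups was 0.88 for Slc17a6, 0.58 for Gbx2, 0.319 for Lhx9, 0.246 for Tcf7l2 and 0.0565 for Lef1. Slc17a6 was above Gbx2 in 17 of 24 pups, and Gbx2 was above Lhx9 in 22 of 24. Lhx9 and Tcf7l2 were not separated, since Lhx9 was the higher in 12 of 24 pups. Tcf7l2 was above Lef1 in 24 of 24. The table holds no read counts. Approximate reads, estimated from the smallest steps between low values, were 24.3 to 63.2 M (megareads) per pup, with a median of 33.1 M for Saline, 30 M for Poly I:C, 41.2 M for MAM and 43.1 M for Low Protein. On this estimate Gbx2 rested on a median of 68 reads per pup and on 18 in the lowest, while Tcf7l2 rested on a median of 2933 reads and on at least 1115.

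Several pups stood apart in marker lists other than the members. Saline 2.1 had the highest summed level of the 7 genes listed for the medial ganglionic eminence, 95.6 against at most 67.5 in the other pups, and the lowest summed level of 8 neocortical genes, 214 against at least 274. Low Protein 2.3 had the highest summed level of 9 hypothalamic genes, 14.9. Poly I:C 1.3 had the lowest summed level of 7 choroid plexus genes, 33.3, where the median of the Poly I:C pups was 176, and MAM 1.3 and MAM 2.3 were also low in this list, at 57.6 and 70.3. Low Protein 2.2 had the highest summed level of 9 meningeal genes, 45.7 against at most 26.7 in the other pups. Beside the results that moved most, values without Saline 2.1, Low Protein 2.2 or Poly I:C 1.3 are given.

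Gbx2 and Tcf7l2 differed far more from pup to pup than the other members. Over the 24 pups Gbx2 ranged 14.1-fold, from 0.172 to 2.42 TPM, and Tcf7l2 ranged 17.2-fold, from 0.118 to 2.03 TPM. Lhx9 ranged 3.22-fold, Lef1 2.34-fold and Slc17a6 1.89-fold. The SD of the log2 value was 1.07 for Gbx2 and 1.24 for Tcf7l2, larger than in 94.6% and 95.1% of the 13368 genes tested. The SD was 0.43 for Lhx9, 0.28 for Lef1 and 0.244 for Slc17a6, larger than in 81.1%, 66.7% and 60% of genes.

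In all, 4 pups were above 1 TPM in Tcf7l2, namely Poly I:C 2.2 at 2.03, Poly I:C 1.1 at 1.78, Low Protein 1.2 at 1.58 and Poly I:C 1.2 at 1.18. These pups came from 3 litters and 2 groups. The same pups ranked 1 to 4 in Lhx9 and 2 to 5 in Gbx2. In Lef1 they ranked from 4 to 14 of 24 and in Slc17a6 from 4 to 18, so they did not lead in these genes. Their littermates were lower in Tcf7l2, the lowest being Low Protein 1.3 at 0.118, Poly I:C 2.3 at 0.143 and Poly I:C 1.3 at 0.593. Saline 2.1 was the highest of all in Gbx2 (2.42) and the 5th in Tcf7l2 (0.882), but ranked 13 in Lhx9 and 23 in Lef1.

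The share of the variation that lay between littermates was near their share of the degrees of freedom. Of the variance of log2 values over the 24 pups, 75.1% lay within litters for Gbx2, 72.8% for Lhx9, 66.9% for Slc17a6, 66.4% for Lef1 and 62.6% for Tcf7l2. Pups within litters carry 16 of the 23 degrees of freedom, or 69.6%. Litters of a group, with 17.4% of the degrees of freedom, took 23.5% of the variance for Lef1 and 20.4% for Slc17a6, but 8.14% for Tcf7l2, 7.16% for Gbx2 and 3.15% for Lhx9. The treatment groups, with 13% of the degrees of freedom, took 29.3% for Tcf7l2, 24.1% for Lhx9, 17.8% for Gbx2, 12.6% for Slc17a6 and 10.1% for Lef1.

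**Figure D1:**
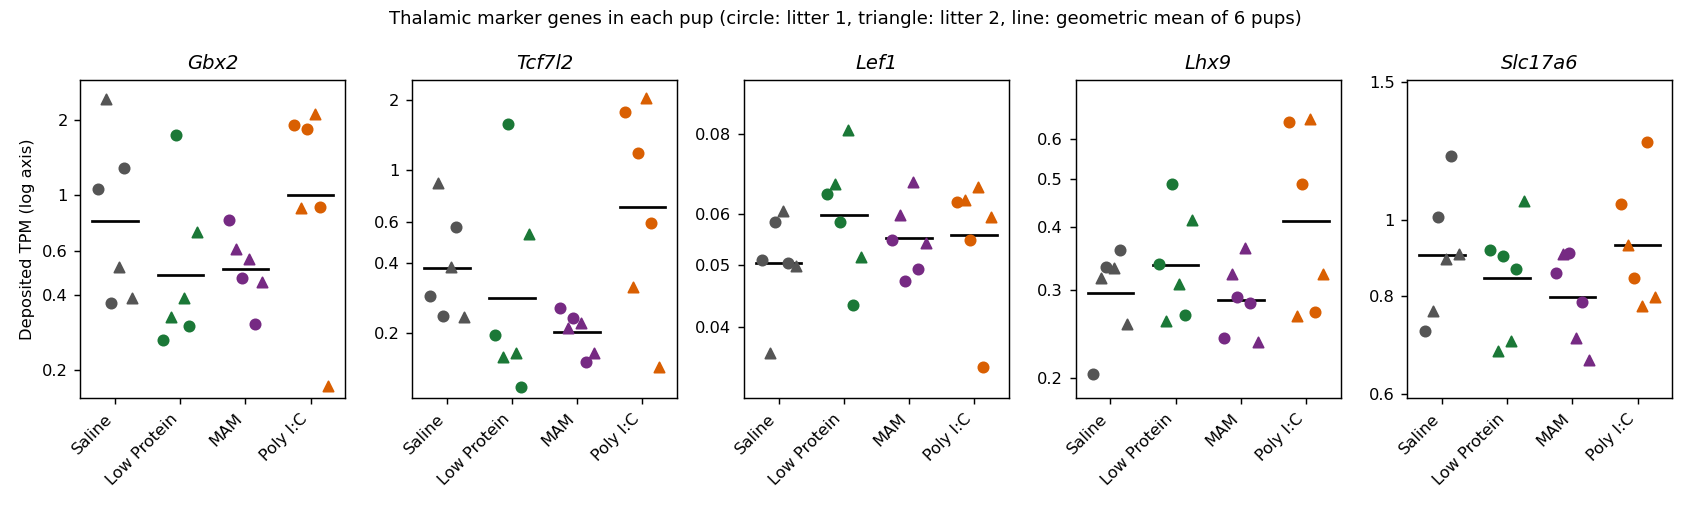
Deposited TPM of each matched member (log axis, a separate scale for each gene) in each pup by maternal treatment, with circles for litter 1, triangles for litter 2 and a line at the geometric mean of 6 pups. Tcf7l2 spans 0.118 to 2.03 TPM with the 6 MAM pups between 0.151 and 0.256, while Slc17a6 stays between 0.664 and 1.26 TPM.

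The comparisons with Saline asked whether a treatment of the dam went with more or less of the thalamic genes in the pup. None of the 5 members passed an adjusted p of 0.05 in any of the comparisons (limma over 13368 genes). At this threshold 0% of all genes were called for Low Protein, 0.015% for MAM and 0% for Poly I:C. At an unadjusted limma p of 0.05, 0 of 5 members were called for Low Protein, 0 of 5 for MAM and 1 of 5, Lhx9, for Poly I:C. The share of all genes called at that level was 7.11%, 9.61% and 9.15%. By the exact two-sided permutation test of 6 pups against 6, 0, 1 and 0 members were below 0.05, where 9.17%, 13.1% and 7.72% of all genes were. The smallest p this test can give is 0.00216. In no comparison were the pups of a member without overlap, which held for 0.673%, 0.875% and 0.434% of all genes. In these bulk samples, fewer cells of a type and less RNA per cell cannot be told apart.

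Tcf7l2 was low and even in the MAM pups. In Saline its lowest, median and highest levels were 0.235, 0.337 and 0.882 TPM. In MAM they were 0.151, 0.217 and 0.256 TPM. Of the 6 MAM pups, 5 were below every Saline pup, and the sixth, MAM 1.1 at 0.256, lay above Saline 2.3 (0.235) and Saline 1.2 (0.237). The log2 fold change was -0.91 (SE 0.605, 95% interval -2.17 to 0.34, n = 6 per group), with an adjusted p of 0.58 from limma. The exact permutation p was 0.0108, and it is not adjusted for the other members and genes. The limma fit takes 1 spread for all 4 groups, whereas the SD of log2 Tcf7l2 was 0.298 in MAM, 0.765 in Saline, 1.51 in Poly I:C and 1.43 in the Low Protein pups. In a fit of the 12 pups compared, Tcf7l2 was the only member to pass the unadjusted p, with an adjusted p of 0.304 (limma), the lowest this comparison had under any alternative. Without Saline 2.1 the log2 fold change was -0.67.

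The Poly I:C pups were spread widely in Tcf7l2. Their lowest, median and highest levels were 0.143, 0.887 and 2.03 TPM. The range was 14.2-fold, next to 13.4-fold in Low Protein, 3.76-fold in Saline and 1.7-fold in MAM. Of the 6 Poly I:C pups, 3 were above every Saline pup, and 1, Poly I:C 2.3, was below every Saline pup. The log2 fold change was 0.87 (95% interval -0.39 to 2.12), with an adjusted p of 0.694 (limma). It was 1.32 without Poly I:C 2.3, 1.11 without Saline 2.1 and 0.56 without Poly I:C 2.2. With a whole litter left out it was 0.24 without Poly I:C litter 1 and 1.49 without litter 2. Whether the spread differed between the groups was not tested.

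In the Low Protein pups the lowest, median and highest levels of Tcf7l2 were 0.118, 0.18 and 1.58 TPM. Of the 6 pups, 4 were below every Saline pup and 1, Low Protein 1.2, was above every Saline pup. The log2 fold change was -0.43 (95% interval -1.69 to 0.82) with an adjusted p of 0.931 (limma), and it was -0.93 without Low Protein 1.2. It was -0.62 without Low Protein 2.3, -0.19 without Saline 2.1 and -0.18 without Low Protein 1.3, the lowest pup.

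Gbx2 differed between the groups by less than its spread among pups. Its lowest, median and highest levels were 0.371, 0.788 and 2.42 TPM in Saline and 0.172, 1.37 and 2.11 TPM in Poly I:C. In Low Protein they were 0.264, 0.356 and 1.74 TPM, and in MAM 0.304, 0.51 and 0.795 TPM. All MAM pups were below the 3 highest Saline pups, and all Poly I:C pups were below Saline 2.1.

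The log2 fold change of Gbx2 was -0.72 for Low Protein (95% interval -1.89 to 0.45), -0.64 for MAM (-1.81 to 0.53) and 0.34 for Poly I:C (-0.83 to 1.51). The adjusted p-values were 0.83, 0.668 and 0.906 (limma). Without Saline 2.1 these values were -0.40, -0.32 and 0.66. The Low Protein value was -1.09 without Low Protein 1.2. Without Poly I:C 2.3, at 0.172 TPM the lowest of all pups, the Poly I:C value was 0.85, and without Poly I:C 2.2 it was 0.12.

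Lhx9 had its highest levels in the Poly I:C group. Its lowest, median and highest levels were 0.204, 0.324 and 0.36 TPM in Saline and 0.266, 0.405 and 0.656 TPM in Poly I:C. In this group 3 pups were above every Saline pup, and the other 3 lay among the Saline pups. The log2 fold change was 0.48 (SE 0.221, 95% interval 0.02 to 0.94), with an adjusted p of 0.528 (limma) and an exact permutation p of 0.115. In Low Protein the levels were 0.26, 0.323 and 0.488 TPM, and in MAM 0.236, 0.286 and 0.363 TPM. The log2 fold changes were 0.19 (-0.27 to 0.65) and -0.05 (-0.50 to 0.41), the latter positive under both other scalings of the pups. The Low Protein value was 0.08 without Low Protein 1.2 and 0.09 without Saline 1.1.

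Lef1 was the lowest member per genomic length. Its lowest, median and highest levels were 0.0364, 0.0505 and 0.0607 TPM in Saline, 0.0433, 0.0615 and 0.0812 TPM in Low Protein, 0.0471, 0.0543 and 0.0674 TPM in MAM, and 0.0346, 0.0612 and 0.0661 TPM in Poly I:C. All 4 groups overlapped. The log2 fold changes were 0.25 (95% interval -0.10 to 0.59) for Low Protein, 0.13 (-0.22 to 0.47) for MAM and 0.14 (-0.20 to 0.49) for Poly I:C. The Poly I:C value was 0.28 without Poly I:C 1.3. Without Saline 2.1, the lowest Saline pup, the values were 0.15, 0.03 and 0.05. The Low Protein value was 0.16 without Low Protein 2.2.

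Slc17a6 was the most even member. Its lowest, median and highest levels were 0.722, 0.9 and 1.21 TPM in Saline, 0.681, 0.883 and 1.06 TPM in Low Protein, 0.664, 0.821 and 0.909 TPM in MAM, and 0.777, 0.888 and 1.26 TPM in Poly I:C. The ranges of all 4 groups overlapped. Its intervals were the narrowest of the members, with log2 fold changes of -0.10 (95% interval -0.38 to 0.18) for Low Protein, -0.18 (-0.46 to 0.10) for MAM and 0.04 (-0.24 to 0.32) for Poly I:C. The last was -0.05 without Poly I:C 1.3 and -0.01 without Saline 2.1.

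**Figure D2:**
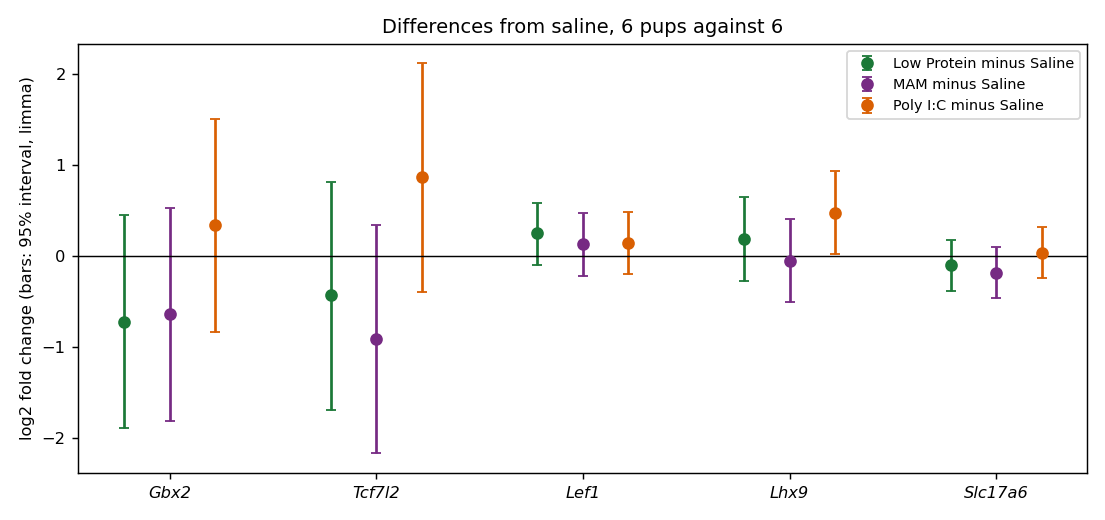
Log2 fold change of each member against Saline (points) with its 95% interval from limma (bars), 6 pups against 6 in each comparison. The intervals of Gbx2 and Tcf7l2 are the widest, and the interval of Lhx9 in Poly I:C (0.02 to 0.94) lies above 0.

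Of the 10 pairs of members, 3 varied together over the 24 pups. Gbx2 and Tcf7l2 had a Pearson r of 0.90 and a Spearman rho of 0.91 of their log2 values (permutation p of 1e-05 for both, the smallest that 100000 resamples can give, adjusted 0.0001 over the pairs). Each was the closest of 13367 genes to the other. The r was 0.91 with group means removed, 0.90 with litter means removed and 0.89 without the 2 pups farthest from the median of Gbx2. It was 0.90 without Saline 2.1 and 0.85 without the pups above 1 TPM in Tcf7l2. Pups share dams, so they are not fully independent.

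Tcf7l2 and Lhx9 had an r of 0.78 and a rho of 0.52 (permutation p of 3.00e-05 and 0.00939, adjusted 0.00015 and 0.0469). The r was 0.62 without the 2 pups farthest from the median of Tcf7l2 (adjusted permutation p of 0.0125) and 0.76 with litter means removed. Without the pups above 1 TPM in Tcf7l2 it was 0.29. In both cases the pups left out were chosen by 1 of the 2 values correlated. This narrows the range of Tcf7l2, so the r of 0.62 and 0.29 are descriptions.

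Gbx2 and Lhx9 had an r of 0.53 and a rho of 0.37 (permutation p of 0.0074 and 0.0724, adjusted 0.0247 and 0.181). Without the 2 pups farthest from the median of Gbx2 the r was 0.49 with an adjusted permutation p of 0.0651. Neither the ranks nor the remaining pups passed the threshold, but leaving out pups by Gbx2 narrows its range. Without the pups above 1 TPM in Tcf7l2 the r of Gbx2 and Lhx9 was -0.03, as a description.

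Lef1 and Slc17a6 did not follow the other members at the adjusted threshold. The 5 genes therefore did not move as 1 set over these pups. The r of Lef1 was -0.19 with Gbx2, -0.09 with Tcf7l2 and 0.30 with Lhx9. The r of Slc17a6 was 0.22 with Gbx2, 0.35 with Tcf7l2 and 0.25 with Lhx9. Without the pups above 1 TPM in Tcf7l2, the r with Tcf7l2 was 0.54 for Slc17a6 and -0.51 for Lef1, as a description. Lef1 and Slc17a6 had an r of -0.37 and a rho of -0.26 (adjusted permutation p of 0.183 and 0.307). Without Saline 2.1, a setting not planned for the pairs, the r was -0.50, as a description.

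**Figure D3:**
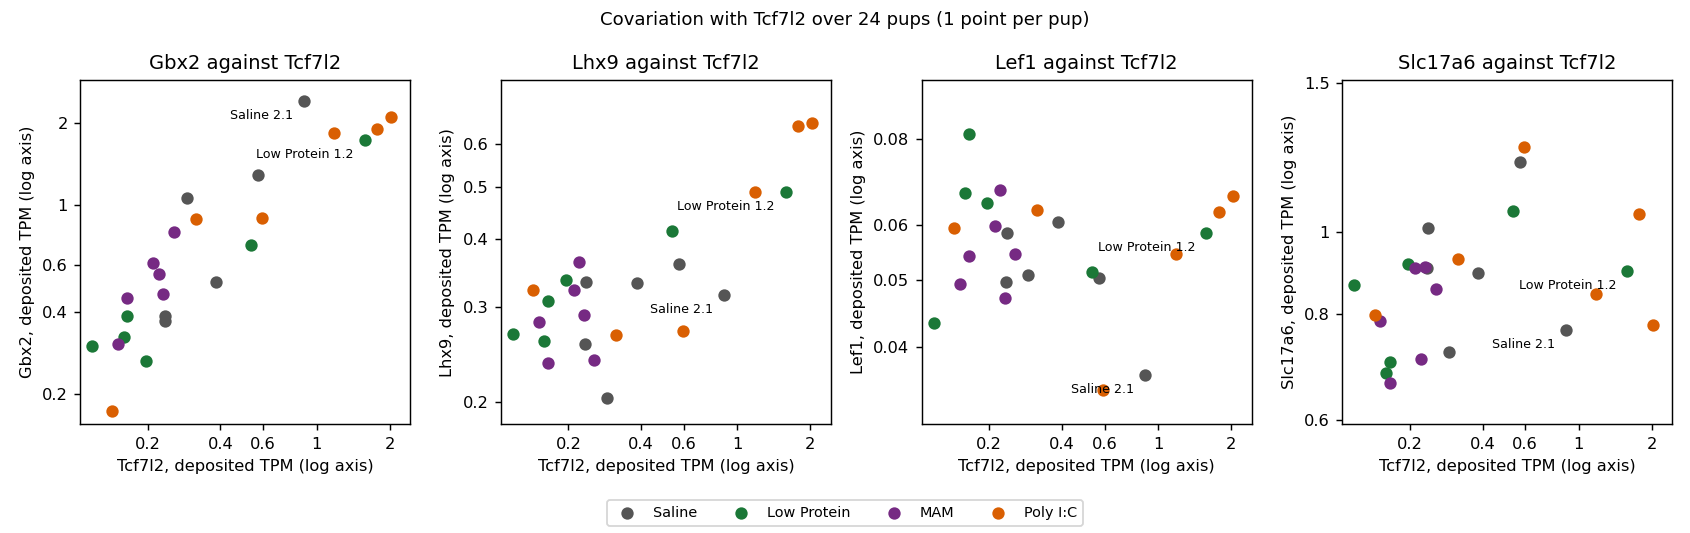
Deposited TPM of Gbx2, Lhx9, Lef1 and Slc17a6 against that of Tcf7l2 (log axes), with 1 point per pup coloured by group and 2 pups named. Gbx2 rises with Tcf7l2 over the whole range (r 0.90), Lhx9 has its 4 highest points in the pups above 1 TPM in Tcf7l2 (r 0.78), and Lef1 (r -0.09) and Slc17a6 (r 0.35) spread widely.

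The genes most like each member were sought among all genes tested, by r over the 24 pups. These values are a description, since all genes share the same libraries. After Tcf7l2, the genes most like Gbx2 were Rgs8 (0.86), Syt13 (0.86), Zic4 (0.82) and Fam19a4 (0.80). After Gbx2, those most like Tcf7l2 were Zic4 (0.89), Syt13 (0.89), Ntng1 (0.83) and Tox (0.82). Zic4 encodes a zinc finger transcription factor, Ntng1 the axonal adhesion protein netrin-G1 and Rgs8 a regulator of G protein signalling. Zic4 ranged from 0.28 TPM in MAM 1.3 to 4.12 TPM in Saline 2.1. Only 38 genes had an r above 0.7 with Gbx2, 22 with Tcf7l2 and 6 with Lhx9.

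Lhx9 was most like Zic5 (0.80), Tcf7l2 (0.78), Fzd10 (0.72), Cpm (0.72) and Irx2 (0.71). Fzd10 encodes a Wnt receptor and Irx2 an Iroquois homeobox factor. Fzd10 and Tcf7l2 were both highest in Poly I:C 2.2, and Zic5, Cpm and Irx2 were highest in Poly I:C 1.1.

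Lef1 and Slc17a6 had other companions and many more of them, with 285 and 437 genes above an r of 0.7. Lef1 was most like Golim4 (0.85), Ezr (0.85), Nf1x (0.84), Yap1 (0.83) and Ggta1 (0.83). Ezr encodes ezrin, which ties membranes to actin, and Yap1 a transcriptional effector of Hippo signalling. Ezr, Nf1x, Yap1 and Ggta1 were lowest in Poly I:C 1.3, as Lef1 was, and without that pup their r with Lef1 was 0.79, 0.78, 0.77 and 0.76. Slc17a6 was most like Metap1 (0.89), Rab9b (0.88), Herc3 (0.87), Hacd3 (0.85) and Reep1 (0.85). Metap1, Rab9b and Hacd3 were highest in Poly I:C 1.3, as Slc17a6 was, and without it their r was 0.87, 0.84 and 0.81.

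Lists of markers of the wider diencephalon and of neighbouring tissues were set beside the members. No gene of any of the 13 lists passed an adjusted p of 0.05 in any comparison (limma). Of 14 wider diencephalic genes tested, 14 had a positive r with Tcf7l2 and 13 with Gbx2, with medians of 0.55 and 0.46, where over all genes 69% and 65% were positive and the medians were 0.11 and 0.10. Within this list the r with Gbx2 ran from -0.01 for Olig3 to 0.82 for Zic4, and that of Zic1, a relative of Zic4, was 0.80. Zic1 and Zic4 were both highest in Saline 2.1, and without it their r with Gbx2 was 0.76 and 0.79. Shox2, Sox14, Irx5 and Slc6a4 were at the offset in their lowest pup, so their r rests in part on values at the floor. Slc17a6 was also positive with 14 of the 14 genes (median 0.28), where 59.4% of all genes were positive with it. Lhx9 was positive with 13 (median 0.43) and Lef1 with 5 (median -0.07). At an unadjusted limma p of 0.05, 1 of the 14 genes was lower in Low Protein (Cacna1g, a T-type calcium channel gene, log2 fold change -0.32), and none was called in the other comparisons. The median log2 fold change of the list was -0.12 for Low Protein, -0.39 for MAM and 0.26 for the Poly I:C pups, beside -0.015, -0.071 and 0.0027 over all genes tested.

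The pup with the highest summed hypothalamic level was not the highest in Tcf7l2 or Gbx2. Of 9 tested hypothalamic genes, 8 had a positive r with Tcf7l2 and 8 with Gbx2, where 69% and 65% of all genes did. The median r of the 9 genes was 0.38 with Tcf7l2, 0.31 with Gbx2 and 0.48 with Slc17a6. Low Protein 2.3, the highest pup in Sim1, Otp, Fezf1, Pomc, Foxb1 and Avp, ranked 8 in Tcf7l2 and 11 in Gbx2. Poly I:C 2.2, the highest in Tcf7l2, had a summed hypothalamic level of 1.95 TPM, the lowest of the Poly I:C pups. The other pups above 1 TPM in Tcf7l2 had 8.28 (Poly I:C 1.1), 5.39 (Low Protein 1.2) and 3.55 TPM (Poly I:C 1.2). Saline 2.1, the highest in Gbx2, had 9.01 TPM. The group median was 4.17 TPM in Poly I:C, 3.46 TPM in Low Protein and 4.96 TPM in Saline. Of the hypothalamic list, Rax, Hmx3, Hcrt and Six6 were at the offset in too many pups to be tested. Otp, Hmx2 and Oxt were tested but were at the offset in their lowest pup. The midbrain and hindbrain list had 5 genes tested of 12 matched, with a median r of 0.20 with Tcf7l2 and 0.18 with Gbx2, and its summed level was at most 0.567 TPM in any pup.

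Gbx2 varied with genes of the ventral forebrain as well as with those of the diencephalon. The median r of 7 genes of the medial ganglionic eminence, the source of many cortical interneurons, was 0.61 with Gbx2 and 0.40 with Tcf7l2, and that of 10 striatal genes was 0.39 and 0.20. Without Saline 2.1 these medians were 0.52 and 0.35 for the eminence and 0.26 and 0.11 for the striatum. The difference between Gbx2 and Tcf7l2 was not tested. For Gbx2 the median with the eminence was above that with the wider diencephalon, 0.46 with all pups and 0.42 without Saline 2.1. Nkx2-1, which specifies the medial ganglionic eminence, had an r of 0.71 with Gbx2 (0.66 without Saline 2.1) and 0.57 with Tcf7l2 (0.53) and was highest in Saline 2.1, at 9.74 TPM against a median of 3.21 TPM. At an unadjusted limma p of 0.05, 5 of the 7 genes were lower in Low Protein (Lhx6, Lhx8, Dlx1, Dlx5 and Gad2), 2 in MAM (Lhx6 and Dlx1) and none in the pups of the Poly I:C dams. The share of all genes called in either direction was 7.11%, 9.61% and 9.15%. Saline 2.1 was the highest of all pups in Lhx8, Dlx1, Dlx5 and Gad2, and their fold changes without it are not reported here. The median log2 fold change of the list was -0.39, -0.26 and -0.17. Its summed level ran from 45.2 to 95.6 TPM in Saline, 38.4 to 57.1 in Low Protein, 42.1 to 57.6 in MAM and 45.1 to 67.5 in Poly I:C, and its part in the levels of Gbx2 was not tested.

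**Figure D4:**
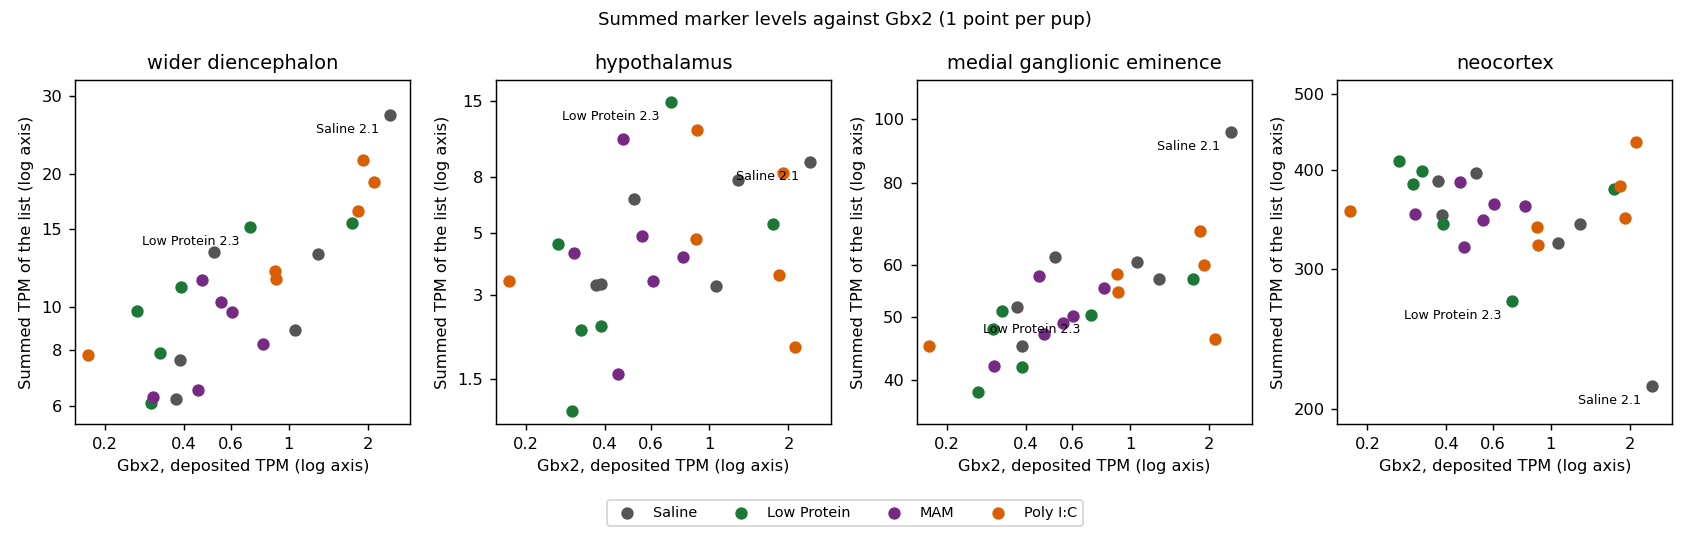
Summed TPM of 4 marker lists against the TPM of Gbx2 (log axes), with 1 point per pup coloured by group and 2 pups named. Saline 2.1 is the highest pup in Gbx2 (2.42) and in the medial ganglionic eminence list (95.6) and the lowest in the neocortex list (214), and Low Protein 2.3 is the highest in the hypothalamus list (14.9).

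Among genes of the other lists reported here, at an unadjusted limma p of 0.05, Bcl11b (neocortex) was lower and Emx2 (hippocampus and cortical hem) higher for Low Protein, and Tac1 (striatum) and Tph2 (midbrain and hindbrain) were lower for MAM. Tph2 was at the offset in MAM 1.1, with a median of 0.000755 TPM and at most 0.00424 TPM in any pup. Its fold change therefore rests on values near the offset. None of the hypothalamic, Cajal-Retzius, endothelial, choroid plexus or meningeal genes was called.

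The labelled tissue was present in all pups. The summed level of the 8 neocortical genes was 214 to 397 TPM in Saline, 274 to 411 in Low Protein, 320 to 387 in MAM and 322 to 434 in Poly I:C. Their median r was 0.02 with Tcf7l2 and -0.09 with Gbx2, and 0.14 and 0.19 without Saline 2.1. The r with Gbx2 was positive for 3 of the 8 genes, and for 6 without Saline 2.1. It was highest for Bcl11b (0.40) and lowest for Neurod6, a factor of cortical projection neurons, at -0.49 (-0.34 without Saline 2.1). Neurod6 was lowest in Saline 2.1, at 46.8 TPM. Poly I:C 2.2, the highest pup in Tcf7l2 and in Lhx9, was also the highest in the neocortical list, at 434 TPM. Of 9 genes of the hippocampus and cortical hem, Prox1, which is also made in the thalamus, had an r of 0.77 with Tcf7l2, while the median of the list was 0.09. The 5 tested genes listed for Cajal-Retzius cells, the reelin-making neurons of the cortical surface, had a median r of 0.51 with Tcf7l2 and 0.43 with Gbx2, and Lhx1 and Lhx5 of this list are also made in the diencephalon.

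Lef1 varied with genes of several lists, among them the Wnt targets, the vessels and coverings of the brain and the labelled tissue itself. The r of Lef1 was positive for 8 of 8 Wnt pathway genes (median 0.59), 12 of 12 endothelial genes (0.58), 7 of 7 choroid plexus genes (0.60), 9 of 9 meningeal genes (0.51), 9 of 9 genes of the hippocampus and cortical hem (0.57) and 8 of 8 neocortical genes (0.50). Over all genes 59.1% were positive, with a median of 0.10. Without Poly I:C 1.3, the lowest pup in Lef1, the medians were 0.56 for the Wnt pathway, 0.47 for endothelium, 0.43 for choroid plexus, 0.50 for meninges, 0.47 for the hippocampus and cortical hem and 0.46 for neocortex. Without Low Protein 2.2, the highest pup in Lef1 and in the meningeal list, the meningeal median was 0.38, and without Saline 2.1 the neocortical median was 0.37. Tcf7l2, the other Wnt effector among the members, had a median r of 0.20 with the Wnt pathway and 0.11 with the endothelial genes. Axin2, a direct Wnt target, was lowest in Poly I:C 1.3 at 0.52 TPM and highest in Low Protein 2.2 at 1.1 TPM, the pups that were also lowest and highest in Lef1. None of the 8 Wnt pathway genes passed an unadjusted limma p of 0.05 in any comparison, and their median log2 fold changes were 0.16, 0.03 and 0.09. The choroid plexus genes summed to 126 to 186 TPM in Saline, 131 to 213 in Low Protein, 57.6 to 212 in MAM and 33.3 to 250 in Poly I:C. Their part in the levels of Lef1 was not tested.

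**Figure D5:**
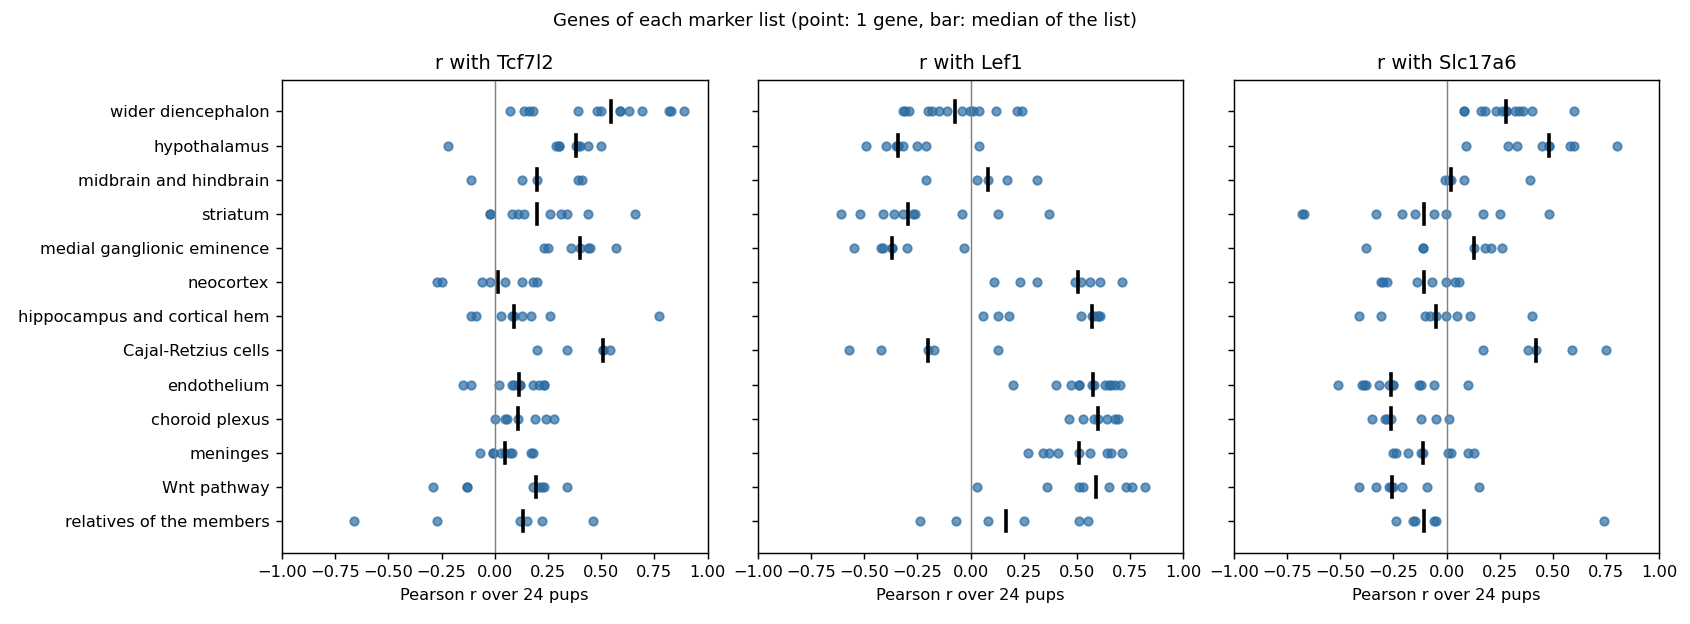
Pearson r over 24 pups between each listed gene (points, with a bar at the median of the list) and Tcf7l2, Lef1 or Slc17a6. The wider diencephalon lies highest for Tcf7l2 (median 0.55), while endothelium, choroid plexus and the Wnt pathway have medians of 0.58 to 0.60 for Lef1 and -0.26 for Slc17a6 (-0.07, 0.09 and -0.03 without Poly I:C 1.3).

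Some relatives of the members varied with them and others did not. Slc17a7, which encodes VGLUT1, the transporter of mature cortical neurons, had an r of -0.66 with Tcf7l2, -0.62 with Gbx2 and -0.15 with Slc17a6. Slc17a8, which encodes VGLUT3, had an r of 0.74 with Slc17a6. Gbx1 had an r of 0.37 with Gbx2, was highest in Saline 2.1, as Gbx2 was, and had a log2 fold change of -1.43 for Low Protein, called at an unadjusted limma p of 0.05 only. Lhx2, the pallial relative of Lhx9, had log2 fold changes of 0.25, 0.25 and 0.28 in the comparisons in that order, each called at an unadjusted limma p of 0.05 and none at an adjusted p, and it was lowest in Saline 2.1 at 3.57 TPM. These comparisons share the same Saline pups. Tcf7l1 had log2 fold changes of 0.03, -0.02 and 0.08.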

How the data were processed

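The authors aligned paired reads of stranded mRNA libraries to rn6 with STAR (version 2.4.1d) in Partek Flow, quantified RefSeq transcripts with the Partek E/M method, and deposited TPM values to which an offset of 0.0001 had been added. The table has 17420 genes in 24 pups, of whose values 20.9% equal the offset. All columns were used, and no 2 pups had identical values. Depth is approximate, because reads were estimated from steps in low values (value times GRCr8 genomic span, within 0.05 of a whole multiple up to 8 for 49.1% to 54.5% of low genes), and counting error was not modelled.

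Log2 values of the 13368 genes above the offset in at least 18 of 24 pups were compared with limma (version 3.58.1, R 4.3.3, eBayes with a variance trend) in 1 fit of 24 pups with treatment group as the term, with Benjamini-Hochberg adjustment over these genes. The fit was tested on simulated data. For single members, exact permutation tests (two-sided, 924 splits) were run (scipy 1.17.1, numpy 2.4.6, Python 3.11.15), and pairs of members by permutation tests of r with 100000 resamples, adjusted over 10 pairs. Fold changes are on the log2 scale of the deposited values. The members and the 13 lists were chosen with earlier results of these data known. Named genes are the members, the 5 genes most correlated with each, and genes of the lists that passed a test, had the highest or lowest r with Gbx2, or on which a result turned; others in the lists were picked with their values in view. Results of 2 listed genes are not reported here. Alternatives were another scaling, pseudocount, filter, variance model, pups in the fit, litter, a replicate block and leaving out each pup and litter.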

Additional observations from a re-analysis of the deposited data

Results flagged for a closer look

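Dixon's test was applied to the 6 log2 values of each member in each group, 20 groups in all, and a pup lay apart in 2 of them. Chance flags about 1 in 20 groups. Gbx2 in Poly I:C 2.3 lay below the other Poly I:C pups, with a gap of 0.654 of the range of the group, above the critical value for 6 samples. Its level was 0.172 TPM, and the next pup was at 0.887 TPM. Lef1 in Poly I:C 1.3 lay below the other Poly I:C pups with a gap of 0.704 of the range, at 0.0346 TPM where the next pup was at 0.0546 TPM. The same pup was lowest of the Poly I:C pups in the summed choroid plexus genes, at 33.3 TPM.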

How the results depend on the processing

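The members kept an adjusted p above 0.05 in all 660 fold changes that had one, over the planned settings. Of 675 fold changes over all settings, 17 had the other sign. With the pups above 1 TPM in Tcf7l2 left out, a setting chosen after seeing the data and on the values themselves, the log2 fold changes for Poly I:C were -0.62 for Gbx2, -0.35 for Tcf7l2 and -0.05 for Lhx9, and no test was made. For Lhx9 in MAM the value was 0.02 with scaling by median of ratios and 0.0033 with scaling by upper quartile. Leaving out 1 pup or litter, the log2 fold change for Poly I:C ranged from -0.21 to 0.89 for Gbx2, 0.24 to 1.49 for Tcf7l2, 0.34 to 0.61 for Lhx9, -0.04 to 0.32 for Lef1 and -0.12 to 0.20 for Slc17a6, for Low Protein from -1.09 to -0.40 for Gbx2, -0.93 to -0.18 for Tcf7l2 and 0.08 to 0.27 for Lhx9, and for MAM from -0.0044 to 0.26 for Lef1 and -0.15 to 0.04 for Lhx9. The cause was not tested.

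The number of members at an unadjusted p below 0.05 was 1 for MAM by the exact permutation test and in the fit of the 12 pups compared, 0 for Poly I:C by both, and 0 to 2 for Poly I:C with 1 pup or litter left out. With only genes of a mean above 1 in every group, 420, 576 and 507 genes were called at an unadjusted p for Low Protein, MAM and Poly I:C, because fewer genes were tested, and no member had a value. With litter means as samples, 679 genes were called for MAM and 807 for Poly I:C. Genes at an adjusted p numbered 1 for Low Protein with scaling by median of ratios, and for MAM 1 with the filter on the mean, 0 with litter means, 1 with the replicate block and 0 by the permutation test. With 1 pup or litter left out, these numbered 0 to 13 for Low Protein, 0 to 3 for MAM and 0 to 253 for Poly I:C, the last without Poly I:C litter 1, and at an unadjusted p 576 to 1207, 475 to 1814 and 641 to 2390. Of the genes at an unadjusted p, 22.3% were higher in MAM, 65.1% with scaling by median of ratios and 54.9% by upper quartile. For Low Protein the shares were 37.1%, 50.9% and 34%, and for Poly I:C 42%, 45.6% and 30.3%.

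The r of Gbx2 and Slc17a6 was -0.01 and that of Tcf7l2 and Lef1 0.08 with litter means removed, the latter 0.01 without Saline 2.1, and that of Gbx2 and Lhx9 was -0.03 without the pups above 1 TPM in Tcf7l2. Lef1 and Slc17a6 had an r of -0.53 with scaling by median of ratios (adjusted permutation p of 0.0261), which did not pass in the main setting. Pups with the same number in different groups deviated together with a median r of 0.0318 (from -0.105 to 0.18 over 36 pairs), so the numbers do not pair the pups, and the replicate block left the numbers of members called as they were. Depth limits Gbx2 most, at an estimated 18 reads in the lowest pup.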
